A study of Mus musculus with 10 samples.

Results

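The genes described here are Spi1, which encodes the transcription factor PU.1, and 9 genes of the myeloid and leukocyte programme: the adaptor genes Tyrobp and Fcer1g, the leukocyte membrane genes Ptprc, Laptm5 and Cd53, and the myeloid effector genes Mpo, Lyz2, Cybb and Itgam. They were taken by name, 10 of the 55487 genes in the count tables, and the 9 were set against Spi1 over the last 3 of 5 stages on the way from mouse embryonic stem cells to blood. Nuclear RNA was sequenced from HM-1 mouse ES cells and from cells made from them in serum culture, with 2 libraries at each of 5 stages and 10 libraries in all. The stages were undifferentiated ES cells, FLK1+ hemangioblasts (HB) sorted after 3 days as embryoid bodies, and 3 populations sorted from a blast culture of HB cells: the first hemogenic endothelium (HE1, KIT+ TIE2+ CD41-), the second (HE2, KIT+ TIE2+ CD41+) and hematopoietic progenitors (HP, KIT+ TIE2- CD41+). Every library came from a single ES cell line, and no allele was varied. The culture changed with the stage, however: ES cells were kept in LIF, embryoid bodies were grown without it, and the blast culture held VEGF, IL-6 and D4T-conditioned medium, so that ES, HB and the blast-culture stages cannot be told apart from their media, while HE1, HE2 and HP shared a single medium. The stages are surface phenotypes from mass culture, and each sorted population may hold several cell types.

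PU.1 is an ETS family factor that binds purine-rich DNA and is needed for the formation of macrophages, neutrophils and B cells. In endothelium on its way to blood it is known to come up with RUNX1, and in blood progenitors its level bears on the choice between the myeloid and erythroid lineages. The products of its classical target genes work together at the leukocyte membrane and in the phagosome: TYROBP (DAP12) and FCER1G carry the ITAM motifs through which activating receptors signal, CD45 (Ptprc) is the phosphatase that sets the kinases below them, and MPO, LYZ2 and CYBB make or use the microbicidal contents of granules and phagosomes.

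RefSeq promoter windows, 250 bases before to 50 bases after the annotated start in GRCm38.p6, were at hand for 8 of the 10 genes, with 2 windows for Ptprc. Spi1 and Tyrobp had none. The purine-rich PU.1 core GAGGAA, searched on both strands, was found in 6 of the 8 genes (Ptprc, Laptm5, Cd53, Mpo, Cybb and Itgam) and in 28.3% of all 32851 promoter windows. Its longer form GAGGAAGT, which contains the shorter one, was found in Cd53 and Mpo and in 3.20% of all windows. The RUNX core TGTGGT was found in Fcer1g, Cd53, Lyz2 and Cybb and in 16.8% of all windows, and the C/EBP pattern TTGCNNAA in 0 of the 8 genes and 10.8% of all windows. A match is a string of letters and was not tested as a binding site. The 4 windows below carry the most matches or the clearest contrast in level, namely Mpo and Cd53 with the longer core, Itgam with 3 shorter cores and Laptm5, which has 1 core and was the gene already high in ES cells. Each is printed 5′ to 3′ from 250 bases before to 20 bases after the start, with GAGGAA or its reverse complement in capitals. The last Itgam core, 32 bases after the start, lies beyond the printed stretch.
Mpo (chr11:87793534-87793803, + strand): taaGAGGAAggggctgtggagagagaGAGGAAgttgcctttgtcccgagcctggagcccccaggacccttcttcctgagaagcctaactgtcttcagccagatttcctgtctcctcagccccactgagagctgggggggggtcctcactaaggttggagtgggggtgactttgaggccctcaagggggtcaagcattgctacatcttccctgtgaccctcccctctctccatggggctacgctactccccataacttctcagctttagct
Cd53 (chr3:106790130-106790399, - strand): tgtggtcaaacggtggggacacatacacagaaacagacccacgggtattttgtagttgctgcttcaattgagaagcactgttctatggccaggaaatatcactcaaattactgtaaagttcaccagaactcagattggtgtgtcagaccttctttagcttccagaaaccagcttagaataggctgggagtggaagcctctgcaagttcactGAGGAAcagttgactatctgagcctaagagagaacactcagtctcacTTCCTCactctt
Itgam (chr7:128062390-128062659, + strand): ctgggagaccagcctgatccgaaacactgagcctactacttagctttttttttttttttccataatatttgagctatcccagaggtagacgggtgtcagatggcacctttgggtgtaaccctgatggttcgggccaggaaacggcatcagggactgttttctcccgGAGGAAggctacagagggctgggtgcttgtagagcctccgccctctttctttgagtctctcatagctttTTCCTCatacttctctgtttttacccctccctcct
Laptm5 (chr4:130913066-130913335, + strand): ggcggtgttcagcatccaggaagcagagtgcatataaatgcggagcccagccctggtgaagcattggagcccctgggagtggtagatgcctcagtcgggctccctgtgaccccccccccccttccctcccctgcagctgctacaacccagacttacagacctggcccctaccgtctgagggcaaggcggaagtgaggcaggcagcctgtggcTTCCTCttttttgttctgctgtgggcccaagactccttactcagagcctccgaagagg
In Mpo both cores lay far from the start, at 247 and 224 bases upstream. In Cd53 they lay close to it, 39 bases upstream and 8 bases downstream. The single Laptm5 core lay 38 bases upstream, on the other strand.

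Total counts ran from 24920434 to 58782055 fragments per library, and levels are given as CPM (counts scaled to the library size) after TMM normalization, in which 3 counts came to between 0.0532 and 0.126 CPM. All 10 genes passed the filter on low counts, as did 22596 genes in all. The RNA of the sort antigens was present where the label asked for it, with Itga2b (CD41) at 505 and 469 CPM in HE2. RNA was also present where the label excludes the protein. Itga2b stood at 227 and 127 CPM in HE1. Tek (TIE2) stood at 61.5 and 64.1 CPM in HP, beside 564 and 294 CPM in HE1 and 57.2 and 60.8 CPM in HB. The HE1 libraries stood apart in ES cell markers, whose 5 genes summed to 6.81 CPM in replicate 1 and 79.3 CPM in replicate 2. The sums were 110 and 85.6 CPM in HB and 2265 and 2225 CPM in ES. The part of these transcripts in the results was not tested, so the counts and medians of the 10 genes, and of the lists from HE1 to HP, are given with and without each HE1 library, and single genes of the 10 where their call changed. A stage left with 1 library was taken to vary like the others.

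Spi1 rose at the step into HE2 and stayed high in HP. Its level was 0.957 and 0.516 CPM in ES, 3.93 and 5.63 CPM in HB, 1.85 and 2.48 CPM in HE1, 26.3 and 65.9 CPM in HE2, and 82.2 and 56.6 CPM in HP (replicates 1 and 2). Every library of HE2 and HP was above every library of the 3 earlier stages, and HE2 and HP overlapped. From HE1 to HE2 the log2 fold change was 4.40 (SE 0.465, edgeR quasi-likelihood test adjusted p = 0.000692, n = 2 per stage), and from HE2 to HP it was 0.59 (SE 0.386, adjusted p = 0.882). Spi1 was already up-regulated once before, from ES to HB, by 2.65 (SE 0.477, adjusted p = 0.00139). From HB to HE1 both libraries were lower, with a log2 fold change of -1.14 (SE 0.447, adjusted p = 0.0754), so that the level in HE1 lay between those of ES and HB. That difference did not pass the test here, but passed it with DESeq2 (adjusted p = 0.0278), without the filter on low counts and when either HE2 library was left out. In bulk samples such as these, fewer cells that express a gene and less RNA per cell cannot be told apart.

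**Figure D1:**
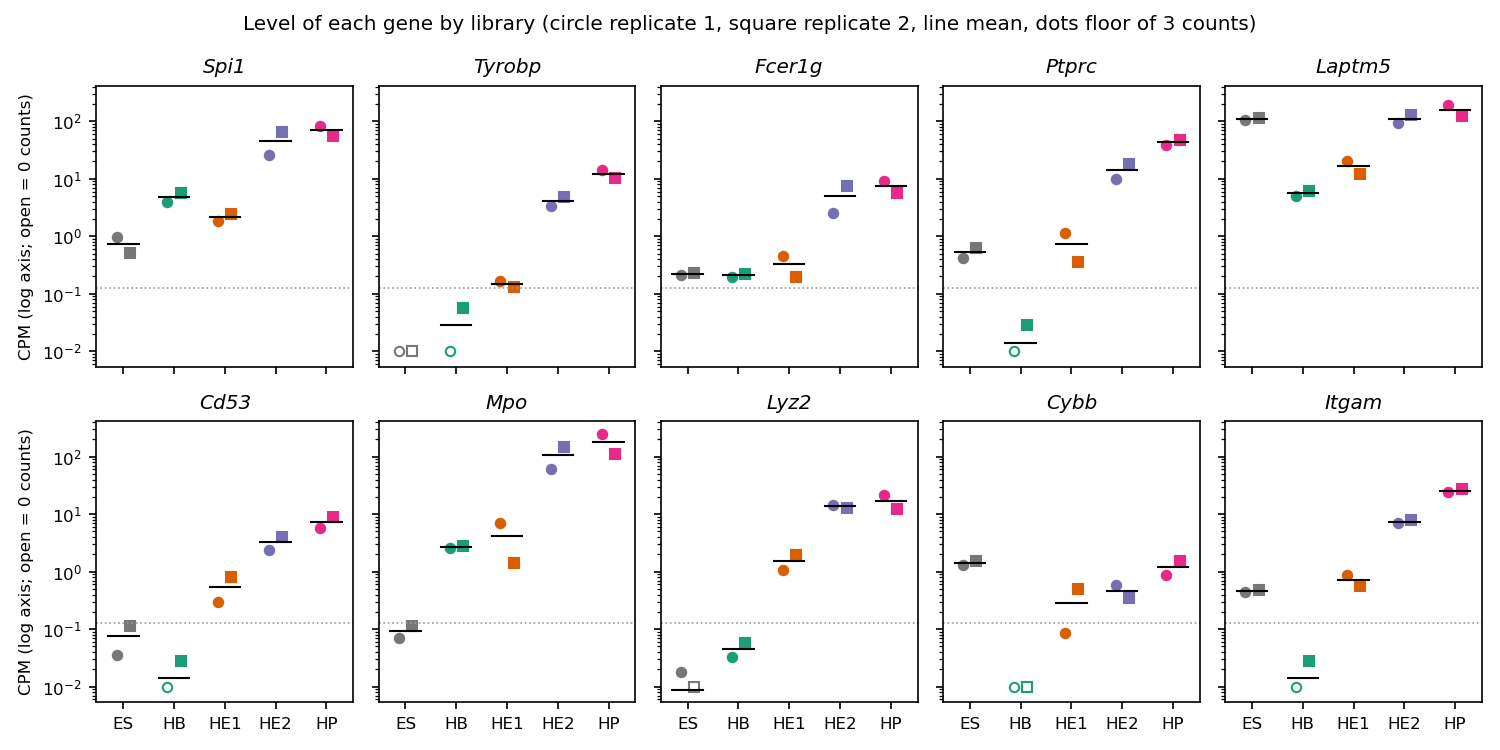
CPM on a log axis (vertical) of the 10 genes in the 5 stages (horizontal), with 1 point for each of the 2 libraries, a line at their mean and open symbols, drawn at the bottom, for libraries with 0 counts; the dotted line is the highest level that 3 counts stood for (0.126 CPM). For 9 of the 10 genes both HE2 libraries sit above both HE1 libraries, Cybb being the exception, and Laptm5, Ptprc, Cybb and Itgam were called lower in HB than in ES.

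The ITAM adaptors came up at the same step. Tyrobp, the adaptor of TREM and related myeloid receptors, was at 0 counts in both ES libraries and in HB replicate 1, and at 0.056 CPM in HB replicate 2. It stood at 0.168 and 0.132 CPM in HE1, which is 4 counts in each library, at 3.38 and 4.79 CPM in HE2, and at 14.2 and 10.5 CPM in HP. The stages from HB to HP did not overlap, and Tyrobp rose by 4.75 on the log2 scale from HE1 to HE2 (SE 0.556, adjusted p = 0.00177). Fcer1g, the common γ chain of Fc receptors, was at a like low level in all the earlier libraries, between 0.198 and 0.462 CPM, then at 2.53 and 7.55 CPM in HE2 and 9.33 and 5.72 CPM in HP. It rose by 3.95 from HE1 to HE2 (SE 0.635, adjusted p = 0.00605). Without HE1 replicate 2 its adjusted p was 0.0509, with a log2 fold change of 3.43.

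The membrane genes of the leukocyte lineage followed different courses before HE2. Ptprc (CD45), the pan-leukocyte phosphatase, was at 0.425 and 0.631 CPM in ES, at 0 and 0.028 CPM in HB (0 and 1 counts) and at 1.14 and 0.363 CPM in HE1. It then stood at 9.87 and 18.2 CPM in HE2 and at 38.6 and 47.3 CPM in HP, where both libraries were above both of HE2. Laptm5, a lysosomal membrane protein of blood cells that limits antigen receptor levels, was at 105 and 113 CPM in ES, 5.02 and 6.14 CPM in HB, 20.8 and 12.3 CPM in HE1, 92.3 and 131 CPM in HE2 and 189 and 122 CPM in HP. It was thus as high in ES cells as in HE2, with overlapping libraries, and it fell by 4.28 on the log2 scale from ES to HB (SE 0.318, adjusted p = 5.14e-06) before it rose again by 1.56 into HE1 (SE 0.297, adjusted p = 0.00322) and by 2.76 into HE2 (SE 0.295, adjusted p = 0.00073). Cd53, a leukocyte tetraspanin, was at no more than 0.115 CPM in any ES or HB library, then at 0.294 and 0.792 CPM in HE1, 2.38 and 4.06 CPM in HE2 and 5.79 and 8.99 CPM in HP. Its rise from HE1 to HE2 of 2.53 (SE 0.588, adjusted p = 0.0249) was lost without HE2 replicate 2 (2.11, adjusted p = 0.162) and with only the 4 libraries of HE1 and HE2 (2.51, adjusted p = 0.0761).

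The effector genes Mpo, Lyz2 and Itgam rose into HE2, and Cybb did not pass the test there. Mpo, the myeloperoxidase of primary granules, was at 0.071 and 0.115 CPM in ES, 2.58 and 2.76 CPM in HB, 6.89 and 1.42 CPM in HE1, 61.4 and 148 CPM in HE2 and 246 and 111 CPM in HP. Like Spi1 it rose from ES to HB, by 4.87 (SE 1.06, adjusted p = 0.00416), a call that limma-voom did not make (adjusted p = 0.0692). The HE1 libraries lay on either side of those of HB, and the change from HB to HE1 was 0.61 (SE 0.666, adjusted p = 0.509) and -0.96 without HE1 replicate 1. Lyz2, the lysozyme of macrophages and granulocytes, had at most 2 counts in any ES or HB library and stood at 1.05 and 1.98 CPM in HE1, 14.7 and 12.9 CPM in HE2 and 21.1 and 12.3 CPM in HP. The HE2 and HP libraries of Lyz2 overlapped. Its near-identical paralog Lyz1 had no more than 1 count in any library.

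Itgam (CD11b), the α chain of the Mac-1 integrin, was at 0.443 and 0.487 CPM in ES, 0 and 0.028 CPM in HB, 0.883 and 0.561 CPM in HE1, 6.91 and 7.87 CPM in HE2 and 24.6 and 26.9 CPM in HP. It had the smallest adjusted p of the 10 genes from HE1 to HP (log2 fold change 5.17, SE 0.350, adjusted p = 3.47e-05). Its exons overlap the annotated gene Gm49368 on the same strand, which had 899 and 726 counts in HP beside 1077 and 848 for Itgam, and fragments in the overlap were counted on both. Cybb (NOX2), the catalytic subunit of the phagocyte NADPH oxidase, was the gene that passed the test neither from HE1 to HE2 nor from HE1 to HP. It was at 1.33 and 1.52 CPM in ES, at 0 counts in both HB libraries, at 0.084 and 0.495 CPM in HE1, 0.579 and 0.349 CPM in HE2 and 0.866 and 1.56 CPM in HP. The HE1 and HE2 libraries overlapped (log2 fold change 0.62, SE 0.759, adjusted p = 0.567), and so did those of ES and HP. From HE1 to HP the log2 fold change was 1.99 (SE 0.730, adjusted p = 0.0749), a change that limma-voom called (adjusted p = 0.0408), as did edgeR without the filter on low counts (adjusted p = 0.0185) and without HE1 replicate 2 (3.78, adjusted p = 0.0288).

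Several changes around HB rest on a handful of counts and are given as ratios of summed counts with an exact 95% interval that covers counting error only. Between HB and HE1 the ratio was 46.2 (7.81 to 1873) for Ptprc and for Itgam, 37.7 (6.28 to 1537) for Cd53, 34.5 (11.4 to 170.4) for Lyz2 and 4.87 (0.971 to 47.0) for Tyrobp. From ES to HB the fall was 33.1-fold (5.66 to 1337) for Ptprc and 30.3-fold (5.14 to 1224) for Itgam. Cybb was at least 15.5-fold lower in HB than in ES and at least 3.16-fold higher in HE1 than in HB, taking 3 counts in each HB library.

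Counted together, 6 of the 10 genes passed the test from ES to HB, with Spi1 and Mpo higher and Ptprc, Laptm5, Cybb and Itgam lower. A gene was called at an adjusted p below 0.05 and a change of at least 2-fold, which 11.5% of all tested genes reached in the higher direction and 17.3% in the lower. From HB to HE1, 6 were called higher (Ptprc, Laptm5, Cd53, Lyz2, Cybb and Itgam) and 0 lower, against 12.7% and 8.19% of all tested genes. The median log2 fold change of the 10 was -0.99 at the first step and 3.54 at the second, beside 0 and 0.04 for all tested genes. The second falls to 1.91 with Cybb, which was at 0 in HB, set to its bound. With only the 4 libraries of HB and HE1, Cd53 and Cybb did not pass the filter on low counts and were not tested, and 4 genes were called. The call of Cybb was lost when HB replicate 1, HB replicate 2 or HE1 replicate 2 was left out (adjusted p between 0.0596 and 0.111), with fitted log2 values of 6.41, 6.39 and 4.64 beside 6.42 with all libraries. Without HE1 replicate 1 the median of the 10 was 3.11 (2.197 with Cybb at its bound) with 6 called, and without HE1 replicate 2 it was 3.18 (2.12 with the bound) with 5 called. Of all tested genes, 13.9% were called higher and 8.93% lower in the first of these fits, and 9.60% and 7.22% in the second.

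From HE1 to HE2, 9 of the 10 genes were called higher and 0 lower, all but Cybb, against 3.26% of all tested genes higher and 5.38% lower. Their median log2 fold change, over all 10, was 3.66, beside -0.08 for all tested genes. In the same 9 genes both HE2 libraries were above both HE1 libraries, as in 28.8% of all tested genes. The largest changes after that of Tyrobp were those of Mpo at 4.69 (SE 0.674, adjusted p = 0.00339), Spi1 and Ptprc at 4.27 (SE 0.487, adjusted p = 0.00101), followed by Fcer1g, Itgam at 3.37 (SE 0.335, adjusted p = 0.000612) and Lyz2 at 3.17 (SE 0.399, adjusted p = 0.00177). Without HE1 replicate 1 the same 9 were called, with a median of 3.99, and without HE1 replicate 2 Fcer1g was lost and the median was 3.53. The shares of all tested genes called higher and lower were then 5.61% and 12.0% without replicate 1, and 1.56% and 1.10% without replicate 2. The number of all tested genes called at this step moved far more, from 1953 to 4295 and 628 without HE1 replicates 1 and 2 and to 3207 and 420 without HE2 replicates 1 and 2.

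From HE2 to HP, 0 of the 10 genes and 0 of all tested genes were called by edgeR's quasi-likelihood test. All 10 fold changes were above 0, with a median of 0.98 beside 0.01 for all tested genes. At an unadjusted p below 0.05, 4 of the 10 were higher (Tyrobp, Ptprc, Cd53 and Itgam) and 0 lower, against 2.97% of all tested genes higher and 4.93% lower. Itgam changed by 1.80 (SE 0.286, adjusted p = 0.0665), Ptprc by 1.61 (SE 0.394, adjusted p = 0.175), Tyrobp by 1.60 (SE 0.409, adjusted p = 0.213) and Cd53 by 1.20 (SE 0.521, adjusted p = 0.600). In 5 genes both HP libraries were above both HE2 libraries, against 15.8% of all tested genes. DESeq2 called Tyrobp, Ptprc and Itgam (3 of 10, and 301 of all tested genes), limma-voom called Ptprc and Itgam (62 of all tested genes), and without HE2 replicate 2 edgeR called Ptprc and Itgam (526 of all). With either HE1 library left out it called Itgam alone of the 10, with 67 and 59 called in all without HE1 replicates 1 and 2.

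Over both steps, from HE1 to HP, 9 of the 10 were called higher and 0 lower, against 5.35% and 11.2% of all tested genes. The median log2 fold change of the 10 was 4.76, beside -0.02, and in all 10 both HP libraries were above both HE1 libraries, as in 28.7% of all tested genes. Tyrobp rose most, by 6.35 (SE 0.566, adjusted p = 0.000166), and Laptm5 least of the 9, by 3.24 (SE 0.300, adjusted p = 0.000125). Spi1 itself rose by 4.99 (SE 0.475, adjusted p = 0.000142), so that Tyrobp, Ptprc (5.88), Mpo (5.46) and Itgam had larger fold changes than Spi1, and Fcer1g (4.53), Cd53 (3.73), Lyz2 (3.45) and Laptm5 smaller ones. These fold changes share the HE1 libraries, and the differences between genes were not tested. Spi1, Tyrobp and Mpo are in a list that the study made with the stage levels of these same libraries, so their change here is not independent evidence of its direction. The genes called were the same 9 without HE1 replicate 1 (median 5.04), and Cybb was added without HE1 replicate 2 (median 4.66), beside 7.29% of all tested genes higher and 15.1% lower in the first fit and 3.87% and 6.86% in the second.

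**Figure D2:**
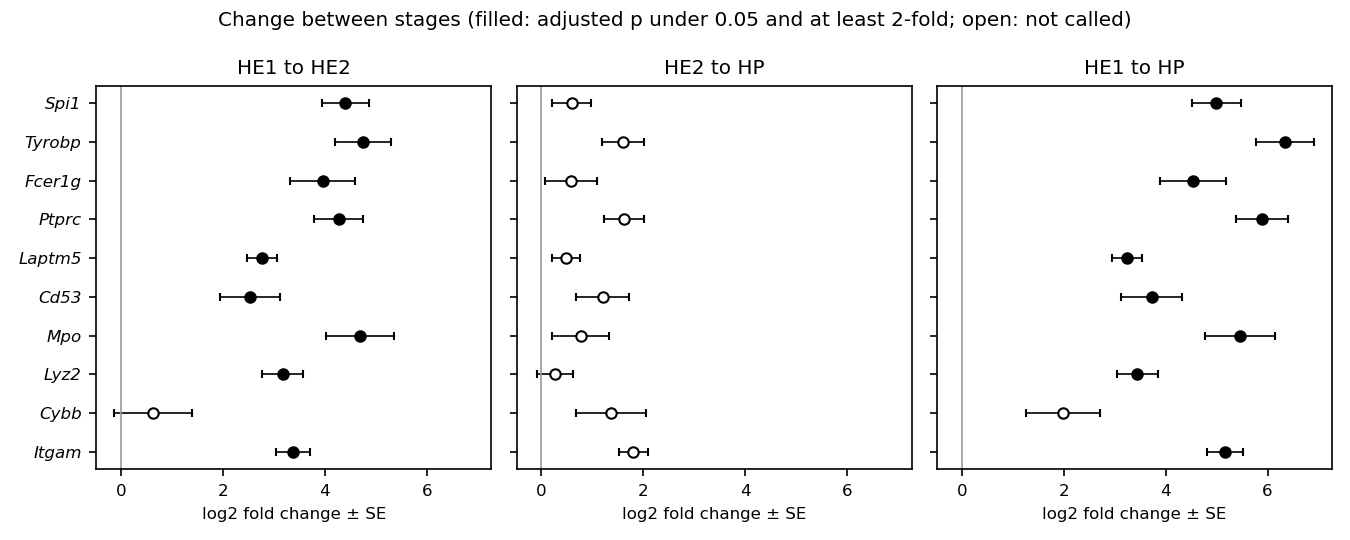
Log2 fold change (horizontal, with its standard error) of the 10 genes (vertical) from HE1 to HE2, HE2 to HP and HE1 to HP, on a common scale; filled points were called and open points were not. From HE1 to HE2 and to HP 9 points are filled and Cybb is open, and from HE2 to HP all 10 lie above 0 and 0 are filled.

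Levels can be compared between genes only per length of exon. In HP the order, in CPM per kb of exon (mean ± SD, n = 2), was Mpo at 52.2 ± 27.9, Laptm5 at 41.0 ± 12.6, Spi1 at 25.8 ± 6.72, Tyrobp at 18.5 ± 3.97, Lyz2 at 12.7 ± 4.77, Fcer1g at 8.61 ± 2.92, Itgam at 5.13 ± 0.336, Cd53 at 4.24 ± 1.30, Ptprc at 2.35 ± 0.333 and Cybb at 0.209 ± 0.0841. Of the 9 neighbouring genes in this order, 5 overlapped in their libraries. The steps that did not overlap were those from Laptm5 to Spi1, from Fcer1g to Itgam, from Cd53 to Ptprc and from Ptprc to Cybb. The place of Ptprc depends on the 18313 bp that all its annotated exons span together.

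The level of each gene relative to Spi1 in the same library shows how closely it kept to Spi1 RNA from HE1 to HP. These ratios are differences of log2 CPM with a prior count of 2, which draws ratios of low counts towards 0. Mpo stayed near 1 log2 unit above Spi1, at 1.19 ± 0.0359 in HE2 and 1.28 ± 0.431 in HP (mean ± SD, n = 2), with a wide spread of 0.54 ± 1.87 in HE1. Fcer1g was at -2.59 in HE1, -3.23 in HE2 and -3.21 in HP on the same scale, with overlapping libraries throughout. In HE2, where Spi1 was 2.50 times as high in replicate 2 as in replicate 1, Mpo was 2.41 times and Fcer1g 2.99 times as high. In HP the same comparison gave 0.69 for Spi1, 0.45 for Mpo and 0.61 for Fcer1g, but in HE1 it gave 1.34 for Spi1 against 0.21 for Mpo and 0.43 for Fcer1g. The HE2 libraries also differed in other genes. Kit stood at 230 and 410 CPM in HE2 replicates 1 and 2, and the endothelial markers summed to 2706 and 1594 CPM. The shared ratios are therefore not particular to Spi1.

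The ratios of the other genes moved between stages. Tyrobp was at -3.41 in HE1, -3.35 in HE2 and -2.48 in HP, where both libraries were above all 4 earlier ones. Its HE1 value rests on 4 counts in each library and was -3.84 with no prior count, against -3.37 in HE2 and -2.48 in HP. Ptprc was at -1.63 in HE1, -1.63 in HE2 and -0.67 in HP, with HP above HE2 but overlapping HE1 (-0.68 and -2.59). Lyz2 went down relative to Spi1, from -0.55 in HE1 to -1.59 and -2.08, as did Laptm5, from 2.87 to 1.40 and 1.15, and Cybb from -2.98 (-3.39 with no prior count) to -6.36 and -5.81. Cd53 went down from -2.01 in HE1 to -3.72 in HE2 and stood at -3.23 in HP, and Itgam was at -1.53, -2.49 and -1.41, with both HP libraries above both of HE2. For Laptm5, Cd53, Lyz2 and Cybb the HE1 and HE2 libraries did not overlap, and for Itgam they did. In HE2, replicate 2 had 0.88 times as much Lyz2, 0.60 times as much Cybb and 1.14 times as much Itgam as replicate 1, against 2.50 times as much Spi1. For Lyz2 the other stages went with Spi1, at 1.88 beside 1.34 in HE1 and 0.58 beside 0.69 in HP. With 2 libraries at each stage these ratios are a description, and no test was made of them.

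**Figure D3:**
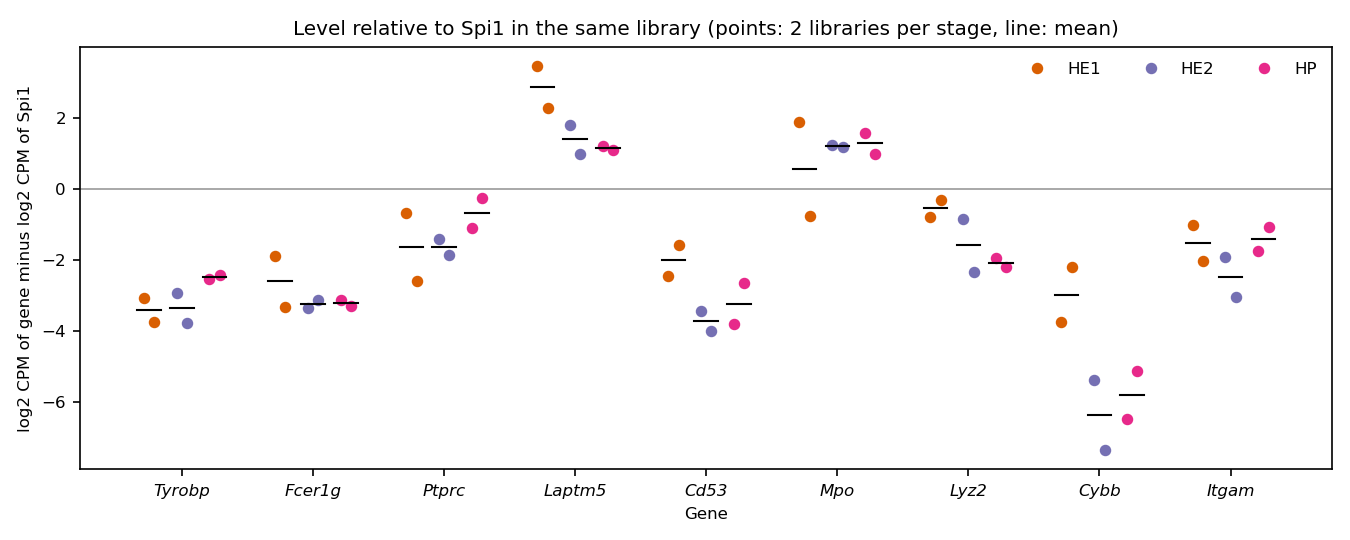
Log2 CPM (prior count 2) of each of 9 genes minus log2 CPM of Spi1 in the same library (vertical) for HE1, HE2 and HP, with a point for each library and a line at the mean; 0 is the level of Spi1. Mpo and Fcer1g are nearly level from HE2 to HP, Tyrobp, Ptprc and Itgam are higher in HP than in HE2, and the means of Fcer1g, Laptm5, Cd53, Lyz2, Cybb and Itgam go down from HE1 to HE2.

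The 10 tested genes whose profile over the 10 libraries was most like that of Spi1 were, in order, Il10ra, Ikzf1, Il9r, Ptafr, Fcgr3, Mir7010, BC035044, Gata1, Zbtb16 and Il1rl1. Likeness was the root mean square difference of log2 CPM after each profile was centred on its own mean, and ran from 0.57 to 0.69 log2 units. Il10ra, the ligand-binding chain of the IL-10 receptor, was at 0.294 and 0.165 CPM in HE1 and 11.7 and 10.7 CPM in HP. Ikzf1, the lymphoid and myeloid regulator Ikaros, shared with Spi1 the higher level in HB than in ES, with 1.72 and 1.63 CPM in ES and 20.1 and 24.9 CPM in HB, and it reached 278 and 241 CPM in HP. Gata1, the erythroid and megakaryocytic regulator, was at 5.55 and 2.41 CPM in HE1 and 75.8 and 65.7 CPM in HP, so that the HP libraries held RNA of both lineage factors. Mir7010 lies within Gucy1a1 on the same strand, and fragments of the host gene may be counted on it. Of the 9 other genes described here none was among the 10 nearest. Fcer1g ranked 36 and Tyrobp 114 of 22595, Cd53 331, Mpo 380, Lyz2 715, Itgam 1311 and Ptprc 2173, while Laptm5 ranked 8427 and Cybb 16283. Over the 6 libraries of HE1, HE2 and HP alone, 3 of the 10 nearest genes were shared with this list.

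The other genes of the pathways were taken from lists made by function, and give the setting of the 10. From HE1 to HP the counts below stand beside 5.35% of all tested genes called higher and 11.2% lower, and from HE1 to HE2 beside 3.26% higher and 5.38% lower. The shares from HE1 to HP without HE1 replicate 1 were 7.29% and 15.1%, and without HE1 replicate 2 they were 3.87% and 6.86%. From HE1 to HE2 they were 5.61% and 12.0% without HE1 replicate 1, and 1.56% and 1.10% without HE1 replicate 2. Where a gene had 0 counts in every HE1 or every HP library of a fit, the list median is also given with that gene at its bound of 3 counts per library, if this changed it. The filter on low counts left out genes that were low at every stage. A gene near 0 in ES, HB and HE1 was therefore tested only through a later stage where it was higher. From HE1 such a gene could only rise, which favours a rise in the list counts and medians. Of 12 genes of ITAM receptor signalling, 9 rose from HE1 to HP and 0 fell, with a median log2 fold change of 2.55, and 8 had risen by HE2. From HE1 to HE2 the count was 9, with 1 lower, without HE1 replicate 1, and 8 without HE1 replicate 2. From HE1 to HP 9 also rose without HE1 replicate 1 (median 3.00, 1 lower) and without HE1 replicate 2 (median 2.45). Btk, a Tec family kinase, rose by 6.16 and Vav1, a Rac exchange factor, by 3.48, while Lyn (0.49), Blnk (-2.49) and Lat2 (-0.25) did not pass the test. Of 16 receptors that pair with TYROBP or FCER1G, 9 were tested, of which 7 rose and 0 fell (median 3.72, or 3.28 with Pira2 at its bound). Of the 10 tested without an HE1 library, 6 rose without replicate 1 (median 3.78, or 3.24 with the bound) and 5 without replicate 2 (median 4.70, or 3.23 with bounds). Fcgr3, the low-affinity IgG receptor, rose by 5.42. Clec4d had 3 counts over both HE1 libraries, a ratio of 56.2 (19.0 to 274.7, exact 95% interval), and Pira2 had none there and was at least 7.88-fold higher in HP.

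Of the 5 partners of CYBB in the NADPH oxidase, 4 rose from HE1 to HP and 0 fell (median 3.32), as without HE1 replicate 1 (median 3.45) and without HE1 replicate 2 (median 3.21). Rac2, the blood cell Rac GTPase, rose by 5.60, the organizer Ncf1 by 4.33 and Ncf4 by 3.32, and Cyba, the membrane partner of CYBB, changed by -0.18 (adjusted p = 0.564). The cytosolic partners thus passed the test where Cybb did not, though that difference between genes was not tested.

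The list of 14 primary and secondary granule genes leaves out Mpo, which had the highest mean level of the 10 in HP. Of these 14, 4 were tested, of which 2 rose and 0 fell (median 2.87, or 1.64 with Ms4a3 at its bound). Ms4a3, 1 of the 2, had 0 counts in ES, HB and HE1 and passed the filter only through HE2 and HP, so it could only rise. Without HE1 replicate 1, 2 rose and 1 fell of 5 tested (median 0.64), and without HE1 replicate 2, 1 rose of 4 (median 3.57, or 2.62 with bounds). Ltf, lactoferrin, rose by 4.33, and Ms4a3, at 0 counts in HE1, was at least 3.66-fold higher in HP, where it stood at 0.570 and 0.254 CPM. Prtn3, proteinase 3, was at 2.67 and 1.27 CPM in HP beside 0.168 and 1.29 CPM in HE1 and did not pass the test (1.41, adjusted p = 0.230). S100a8, S100a9, Camp, Lcn2, Ngp, Fcnb and Chil3 were at 0 counts in HE1 and HP. Of 14 macrophage genes 8 were tested, of which 5 rose and 1, Mrc1, fell (median 3.03). Without HE1 replicate 1, 4 of 10 tested rose and 0 fell (median 1.18), and without HE1 replicate 2, 4 of 8 rose and 1 fell (median 4.18, or 3.51 with the bound). Mpeg1, perforin-2, rose by 3.75 and Cd14, the endotoxin co-receptor, by 3.36, and Cx3cr1, the fractalkine receptor, had 3 counts over both HE1 libraries and a ratio of 80.6 (27.4 to 393.0). Mrc1, which certain endothelia also express, changed by -2.62 (adjusted p = 0.0303).

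Of 14 leukocyte surface and integrin genes 13 were tested, of which 11 rose and 0 fell (median 3.35). Of the 14 tested without an HE1 library, 11 rose without replicate 1 (median 3.39, or 2.99 with bounds) and 10 without replicate 2 (median 2.90, or 2.77 with the bound). Spn (CD43) rose by 4.21, and Cd84 had 2 counts over both HE1 libraries, a ratio of 14.7 (3.82 to 125.6). Of 13 PU.1 partner factors and kin 11 were tested, of which 5 rose and 0 fell (median 1.35). Of 12 tested without an HE1 library, 5 rose without replicate 1 (median 0.95, or 0.94 with bounds), and 6 rose and 1 fell without replicate 2 (median 2.67, or 2.16 with bounds). Ikzf1 rose by 4.24, Gata1 by 4.17 and Runx1 by 3.07, while the PU.1 relative Spib (-0.63) did not pass the test and Spic had no more than 1 count in any HE1 or HP library. From HE2 to HP 0 genes of these 7 lists were called, as for all tested genes. By HE2 the counts higher were 4 receptors, 3 oxidase partners, 2 granule, 2 macrophage and 7 leukocyte surface genes and 4 PU.1 partners. Without HE1 replicate 1 they were 3, 3, 2, 2, 6 and 4 in the same order, with 1 granule gene and 2 PU.1 partners lower, beside 5.61% of all tested genes higher and 12.0% lower. Without HE1 replicate 2 they were 1, 3, 0, 3, 3 and 4, with 0 lower, beside 1.56% and 1.10%.

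**Figure D4:**
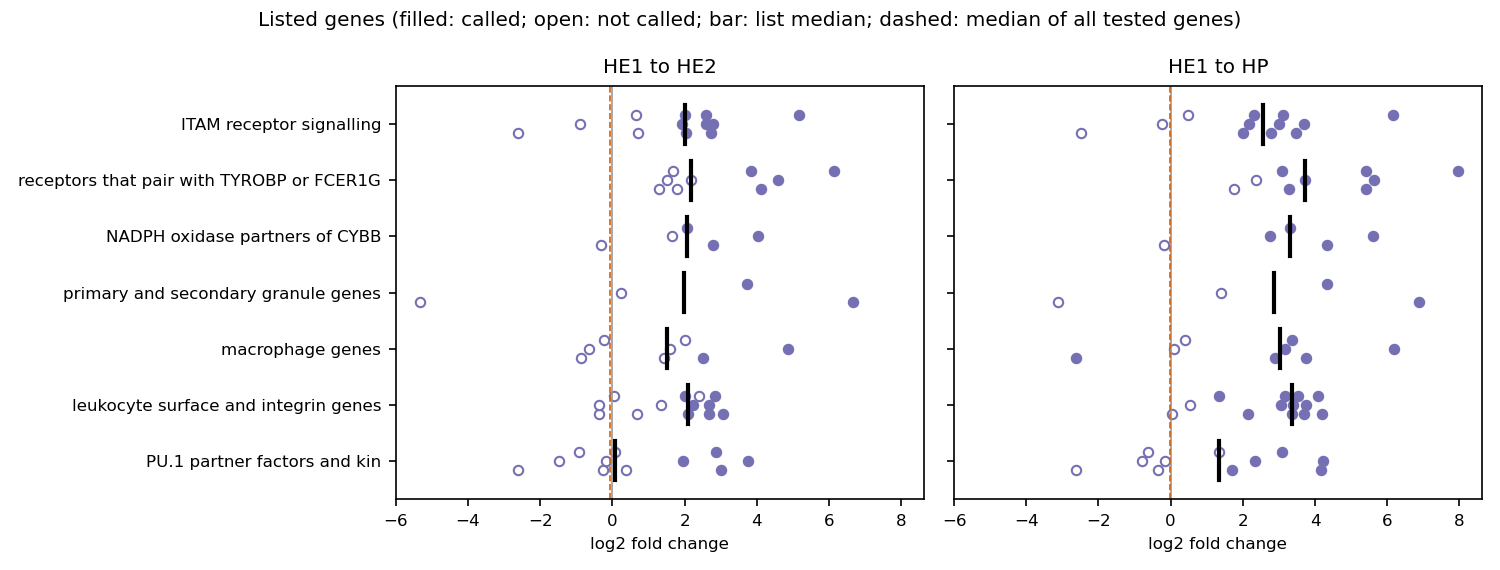
Log2 fold change (horizontal) of the tested genes of 7 lists (vertical) from HE1 to HE2 and from HE1 to HP; filled points were called, open points were not, bars are list medians and the dashed line is the median of all tested genes (-0.08 and -0.02). The medians from HE1 to HP lie between 1.35 and 3.72, and the points are further to the right in HP than in HE2 for most lists, with fitted values for Pira2 and Ms4a3, which were at 0 in HE1.

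Markers of other cell types moved along the same stages, beside the 5.35% of all tested genes called higher and 11.2% called lower from HE1 to HP. The 8 erythroid markers, called higher in 8 of 8 from HE1 to HP, summed to 559 and 275 CPM in HE1, 2258 and 1727 CPM in HE2 and 4845 and 2496 CPM in HP. The 7 endothelial markers, called lower in 7 of 7, summed to 4263 and 2514 CPM in HE1, 2706 and 1594 CPM in HE2 and 772 and 839 CPM in HP. They include Tek, at 564 and 294 CPM in HE1 and 61.5 and 64.1 CPM in HP. Its product TIE2 is the antigen that HP cells were sorted to lack, so its fall goes with the sort. Of 7 megakaryocyte markers 5 were called higher and 1 lower of 6 tested, with sums of 273 and 169 CPM in HE1, 598 and 564 CPM in HE2, which were the highest, and 515 and 422 CPM in HP. Itga2b, the gene of the sort antigen CD41, made up most of each sum. Its level was 227 and 127 CPM in HE1, 505 and 469 CPM in HE2 and 400 and 367 CPM in HP. HE1 was sorted as CD41- and HE2 and HP as CD41+, so the higher sums after HE1 go with the sort. Without HE1 replicate 2, 1 megakaryocyte marker was called higher, and 7 of 8 erythroid and 7 of 7 endothelial markers kept their direction and call. The same counts without HE1 replicate 1 were 4, 8 and 7. Mast cell markers, in which Kit made up nearly the whole sum, were called higher in 2 of 3 tested, and in 1 without HE1 replicate 2. The 9 lymphoid markers summed to no more than 6.24 CPM in any library of HE1, HE2 or HP, with 1 called higher and 1 lower of 6 tested. The 5 ES cell markers were called lower in 5 of 5 from HE1 to HP, with a median log2 fold change of -3.60. That median was -0.57 without HE1 replicate 2. The part of these cell types in the rise of the 10 genes was not tested.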

How the data were processed

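Nuclear RNA-seq counts of 10 libraries, 2 at each of 5 stages, were used as deposited. Per the study's methods and the file headers, the authors removed ribosomal reads (RiboDetector 0.2.7), trimmed reads (Trimmomatic), aligned them to mm10 (HISAT2 2.2.1) and made the deposited gene counts with featureCounts 2.0.1 (Ensembl release 102, stranded), in which a fragment over several genes is counted on each, so overlapping genes share counts. The authors also deposited a matrix of normalized scores, 1 value per stage for 15686 genes, which was used for gene names only.

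Counts were filtered with filterByExpr, scaled by TMM and tested in edgeR 4.0.16 (R 4.3.3) with the quasi-likelihood test, with stage as the only term over all 10 libraries (5 residual degrees of freedom) and Benjamini-Hochberg adjustment over 22596 genes. Calls needed an adjusted p below 0.05 and a 2-fold change. On simulated HE1 to HP counts of 21299 genes, 97.5% of 200 genes changed by 2 on the log2 scale were recovered, with 12 unchanged genes called. The simulation gave all genes the same fixed spread and no other difference between stages, and changed only genes above a minimum mean level. It does not give the sensitivity for low-count genes or for libraries as uneven as those of HE1. Alternatives were limma-voom (limma 3.58.1), DESeq2 1.42.0, other scalings and filters, and the fit without each library. Intervals and floors cover counting error only. The study describes the replicates as biologically independent.

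The genes and lists were chosen with earlier results of these data known. Named are the 10 genes, the 3 called members of each list with the largest change from HE1 to HP, and the 10 genes nearest to Spi1 in profile, apart from 2 list members that are not reported here. Lyn, Blnk, Lat2, Cyba, Mrc1, Prtn3, Spib, Spic and the genes at 0 counts were named after their values were seen. Profiles used log2 CPM with a prior count of 2. Promoter sequences are from RefSeq (GRCm38.p6), whose starts can differ from the Ensembl starts of the counts.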

Additional observations from a re-analysis of the deposited data

How the results depend on the processing

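With 2 libraries per stage, low-count values (Cybb, and Ptprc, Cd53, Itgam, Lyz2 and Tyrobp in HB) are limited by depth. The genes called of the 10 ranged over the alternatives from 5 to 6 for ES to HB, 4 to 7 for HB to HE1, 8 to 9 for HE1 to HE2 and 9 to 10 for HE1 to HP. For HE2 to HP they were 0 in the fit reported, 2 with limma-voom, 3 with DESeq2, 3 without the filter on low counts, and 0 to 2 when each library was left out. Of all tested genes, the numbers called from HE2 to HP were 0 as reported, 62, 301 and 534 under the same alternatives in turn, and 0 to 526 when each library was left out. From HE1 to HE2, 1953 became 3818 without the filter, 535 with only the 4 libraries compared, 2990 without the 2-fold minimum and 420 to 4295 when each library was left out. From HB to HE1, 4722 became 7300 without the 2-fold minimum and 2804 without HB replicate 2 (2804 to 5553 when each library was left out). From HE1 to HP, 3735 became 5637 without the 2-fold minimum and 1905 without HP replicate 1 (1905 to 5460 when each was left out). The direction of a change that was not called turned for Fcer1g from ES to HB (0.025 with total counts, 0.0086 without ES replicate 2, 0.059 without HB replicate 1), from HB to HE1 (-0.14 without HE1 replicate 1, up to 1.11 without another library) and from HE2 to HP (-0.0058 without HE2 replicate 1, up to 1.58), for Mpo from HB to HE1 (-0.96 without HE1 replicate 1, up to 1.37), for Cybb from HE1 to HE2 (-0.069 without HE1 replicate 1, up to 2.42) and for Lyz2 from HE2 to HP (-0.17 without HP replicate 1, up to 0.61). Of the 10 genes most like Spi1, 3 were shared with the list from the 6 libraries of HE1, HE2 and HP. The counts of the gene lists without each HE1 library, given with the lists, were an alternative chosen after seeing the data. The cause of these changes was not tested. The labels do not say whether same-numbered libraries came from the same culture, and no pairing was used in the fit reported. The deviations of same-numbered libraries correlated between -0.32 and 0.21 over the stages. With 2 libraries per stage these values cannot decide whether the samples were paired. With a replicate block the numbers called were 6, 6, 9, 0 and 9 of the 10 from ES to HB, HB to HE1, HE1 to HE2, HE2 to HP and HE1 to HP and were the same genes as without it.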
